A study of Homo sapiens with 2 samples.

Results

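The plasminogen activator system and the tissue factor pathway linked to it were described in 2 human lung cancer cell lines by RNA-seq, with 1 library for each line. The 8 genes were chosen by symbol: the activators PLAU and PLAT, the urokinase receptor PLAUR, the serpin inhibitors SERPINE2 and SERPINB2, tissue factor (F3) and the Kunitz inhibitors TFPI and TFPI2. They had 31 of the 65535 listed transcripts and were 8 of 30843 gene symbols. PC9 is a lung adenocarcinoma line with an activating EGFR deletion that is sensitive to EGFR tyrosine kinase inhibitors, and MTAC-P is a derivative of PC9 that resists them. Both were grown in DMEM with 10% fetal bovine serum, and no inhibitor treatment at harvest is stated. The sources used here do not say whether MTAC-P is 1 clone or a pool. The comparison shows how a sensitive parent and its resistant derivative differed in these genes. With 1 library per line no difference has a replicate check, and no p-value or error can be given.

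Urokinase (PLAU) and tissue plasminogen activator (PLAT) are serine proteases that cut plasminogen into plasmin, a protease that degrades fibrin and matrix proteins. Urokinase binds PLAUR, a receptor held at the cell surface by a lipid anchor, so that plasmin forms at the cell edge. Serpins such as SERPINE2 (protease nexin-1) and SERPINB2 (PAI-2) trap the activators. Tissue factor is the membrane receptor for factor VIIa that starts clotting, TFPI blocks that complex, and TFPI2 inhibits plasmin among other proteases. Carcinoma cells often make tissue factor, urokinase and its receptor.

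Values are FPKM, in which fragments are divided by transcript length and by library size, so different genes share 1 scale. A gene value is the sum over its listed transcripts, and any value given to an unlisted transcript is missing from it. Of coding transcripts in GENCODE release 29, F3 had 2 of 2 listed, SERPINE2 5 of 7, TFPI 8 of 10 and SERPINB2 3 of 5. PLAT had 4 of 8, PLAU 1 of 3, PLAUR 3 of 11 and TFPI2 1 of 6. Levels, multiples between genes and transcript shares below are of these sums only. The listed values summed to 693444 for PC9 and 685082 for MTAC-P, with read depth unknown. Of 8 epithelial and lung adenocarcinoma markers, 7 had a mean of at least 1 FPKM and summed with the rest to 3661 in PC9 and 3873 in MTAC-P. The lung lineage factor NKX2-1 was at 0.0787 in PC9 and listed at 0 in MTAC-P. Fibroblast markers summed to 2.13 and 2.56, endothelial markers to 5.83 and 6.49 and leukocyte markers to 24.1 and 29.7, of which CD68 held 22.2 and 28.8. The leukocyte gene PTPRC stood at 0.0910 and 0.0460.

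Several of the results below turn on transcripts that differ in a few coding stretches, so those stretches are shown here, 5′ to 3′, from the GENCODE release 29 transcript sequences (GRCh38, all on the minus strand). F3-201 is the full-length tissue factor transcript with 295 codons. F3-202, with 238 codons, leaves out a coding exon of 160 bases at chr1:94532321-94532480, a length that is no multiple of 3, so the reading frame after it changes. The form without this exon is known to lack the membrane anchor.
F3 exon left out of F3-202: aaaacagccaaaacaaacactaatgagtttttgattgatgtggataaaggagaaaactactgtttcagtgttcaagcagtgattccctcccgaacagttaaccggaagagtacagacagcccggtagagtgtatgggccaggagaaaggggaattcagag

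For PLAUR, PLAUR-203 (335 codons) encodes the receptor with its lipid anchor, and PLAUR-202 (281 codons) uses another last exon and encodes a form without the anchor signal. Their last coding stretches, at chr19:43648893-43649143 and chr19:43646460-43646548, are the parts by which the transcripts differ.
PLAUR-203 coding end: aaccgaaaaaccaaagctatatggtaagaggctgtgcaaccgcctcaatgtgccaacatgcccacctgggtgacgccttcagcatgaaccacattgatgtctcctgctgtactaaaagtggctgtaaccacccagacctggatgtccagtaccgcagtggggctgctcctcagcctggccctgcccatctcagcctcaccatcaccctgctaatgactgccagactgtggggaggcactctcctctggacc
PLAUR-202 coding end: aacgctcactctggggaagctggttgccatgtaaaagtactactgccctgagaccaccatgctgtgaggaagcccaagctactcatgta

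TFPI is made as a secreted alpha form with a basic tail (304 codons, TFPI-201 and TFPI-203) and a lipid-anchored beta form (251 codons, TFPI-202 and TFPI-204). Their last coding stretches lie at chr2:187466939-187467042 and chr2:187478679-187478803 and share no base of the genome.
TFPI-201 coding end: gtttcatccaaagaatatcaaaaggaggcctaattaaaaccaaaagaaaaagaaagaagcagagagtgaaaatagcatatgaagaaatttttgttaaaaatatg
TFPI-202 coding end: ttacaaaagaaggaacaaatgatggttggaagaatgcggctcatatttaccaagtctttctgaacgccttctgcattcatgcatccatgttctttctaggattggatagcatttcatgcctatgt

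SERPINE2-201 (398 codons) and SERPINE2-202 (397 codons) differ in their coding sequence at an exon junction, by the bases in capitals below, at chr2:223980398-223980400. The capitals are not a codon of their own, since reading them as one would put a stop (taa) in frame just before them.
SERPINE2-201 junction: caaaaataacaaCAGggtcagaaaacc
SERPINE2-202 junction: caaaaataacaaggtcagaaaacc

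Tissue factor differed most among the 8 genes. F3 (chromosome 1, 94529225 to 94541800) had 104.9 FPKM for PC9 and 268 for MTAC-P, 2.56 times the PC9 value. Its log2 ratio, log2((MTAC-P + 1)/(PC9 + 1)), was 1.35, which was rank 228 from the top of the 11435 genes whose mean reached 1 FPKM. In bulk RNA, a larger share of cells with a transcript and more of it per cell cannot be told apart. By level, F3 was rank 746 in PC9 and rank 285 in MTAC-P. It was the 1 gene of the 7 compared that lay at 2-fold or more, and none was at least 2-fold lower. Over all genes compared, 7.77% lay at 2-fold or more, 3.48% as higher in MTAC-P and 4.29% as lower. With a single gene of 7 at 2-fold, that share cannot be set apart from the background.

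**Figure D1:**
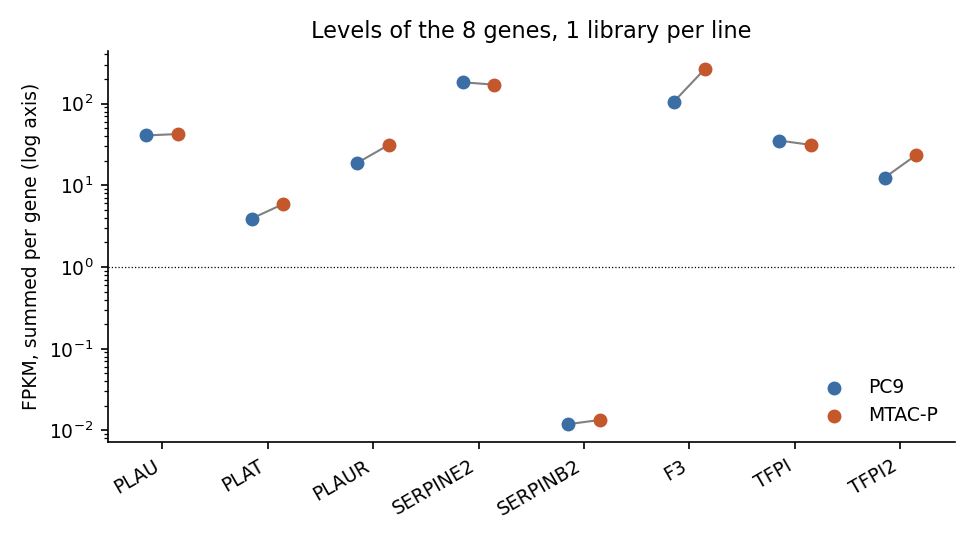
Level of each gene in FPKM, summed over its listed transcripts (vertical log axis), in the PC9 library (blue) and the MTAC-P library (orange), with a grey line joining the libraries and a dotted line at 1 FPKM. F3 shows the widest gap on the plot, from 104.9 to 268, PLAU and SERPINE2 lie nearly level, and SERPINB2 lies near 0.01 in both.

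Both F3 transcripts were higher in MTAC-P. F3-201 had 98.6 FPKM for PC9 and 235 for MTAC-P (log2 ratio 1.24). F3-202, which leaves out the exon printed above, stood at 6.36 and 33.9 (2.24), 5.32 times the PC9 value. The short transcript therefore held 6.06% of the F3 value in PC9 and 12.6% in MTAC-P. Cufflinks estimates how reads are split between overlapping transcripts, and these shares have no interval here.

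The inhibitors of the tissue factor pathway went different ways. TFPI (chromosome 2, 187464230 to 187565760) had 35.3 FPKM for PC9 against 31.2 for MTAC-P (log2 ratio -0.17). TFPI2 (chromosome 7, 93885396 to 93890991) stood at 12.4 and 23.5 (0.87), rank 511 of the genes compared and short of 2-fold. F3 was at 2.97 times the level of TFPI in PC9 and at 8.59 times in MTAC-P. Set against TFPI2, F3 was at 8.45 and 11.4 times its level. The level of TFPI was 2.84 times that of TFPI2 in PC9 and 1.33 times in MTAC-P.

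The small difference of TFPI held transcripts that differed in opposite directions. The alpha transcripts TFPI-201 and TFPI-203 together came to 10.2 FPKM for PC9 and 12.8 for MTAC-P (log2 ratio 0.30). Within them TFPI-201 was at 9.94 and 9.01. TFPI-203, whose annotated start lies further into the gene, was at 0.295 and 3.83 (1.90). It reached a mean of 1 FPKM only through MTAC-P. The beta transcripts together stood at 0.185 and 1.68 (1.18). Singly and together they had a mean below 1 FPKM, so this ratio is of low values and entered no count. Alpha transcripts were thus above beta transcripts in both libraries. The other 5 TFPI models, most of them short, held 70.5% of the TFPI value in PC9 and 53.5% in MTAC-P. They stood at 24.9 and 16.7 FPKM (-0.55), and the largest of them, ENST00000426055, is not in GENCODE release 29. Without models absent from that release the log2 ratio of TFPI was 0.15, so its sign rests on this model.

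TFPI2 had 1 listed transcript, TFPI2-201, of 6 coding transcripts in GENCODE, so its value is that of a single model. GNGT1 overlaps TFPI2 on the opposite strand and stood at 0.972 and 1.57 FPKM, far below TFPI2. The sources used here do not say whether the counting used strand.

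**Figure D2:**
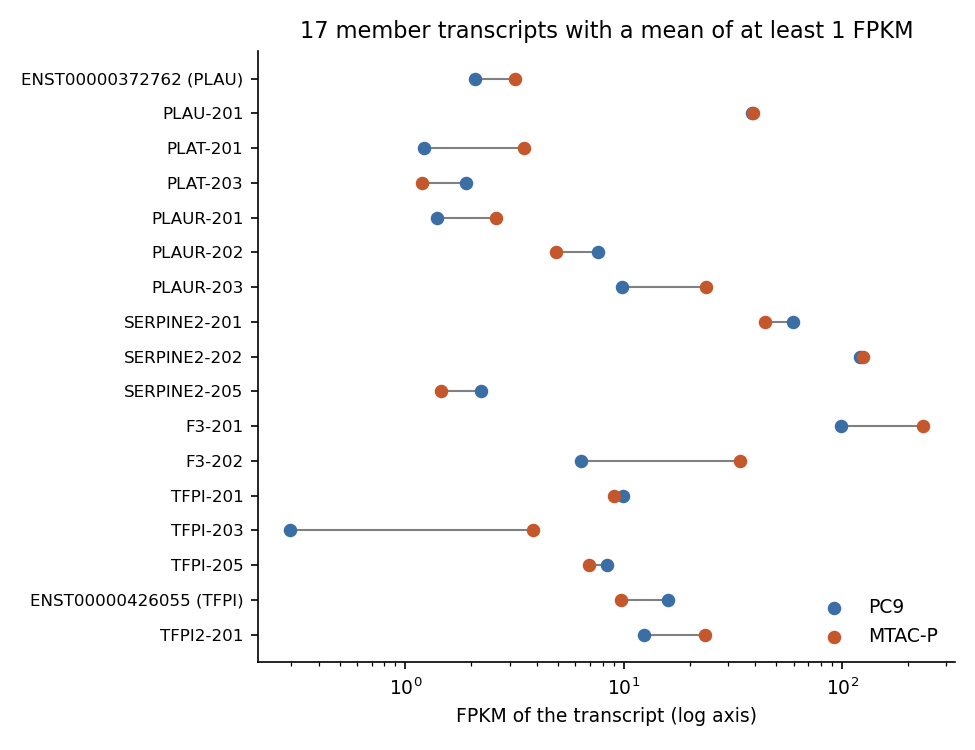
FPKM of each of the 17 member transcripts with a mean of at least 1 (horizontal log axis), in PC9 (blue) and MTAC-P (orange), named as in GENCODE or by transcript number. F3-202 and TFPI-203 show the widest gaps, and PLAUR-203 and PLAUR-202 lie apart in opposite directions.

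Urokinase was at nearly the same level in both libraries. PLAU (chromosome 10, 73909177 to 73917497) had 40.8 FPKM for PC9 and 42.4 for MTAC-P (log2 ratio 0.06). Its main transcript, PLAU-201 with 431 codons, held 94.9% and 92.4% of these values. A second listed transcript, ENST00000372762, which is not in GENCODE release 29, stood at 2.09 and 3.18 (0.44). C10orf55 overlaps PLAU on the opposite strand and stood at 0.926 and 0.513.

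PLAT, the tissue activator (chromosome 8, 42175233 to 42207724), was low, with 3.92 FPKM for PC9 and 5.91 for MTAC-P (log2 ratio 0.49). PLAU stood at 10.4 times the level of PLAT in PC9 and at 7.17 times in MTAC-P. PLAT-201 was at 1.21 and 3.49 (1.02), while PLAT-203, which has the same 562 codons and another arrangement of its untranslated exons, was at 1.89 and 1.20 (-0.40). At these levels the split between the transcripts has unknown precision.

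The urokinase receptor was higher in MTAC-P by less than 2-fold. PLAUR (chromosome 19, 43646095 to 43670547) had 18.8 FPKM for PC9 and 31.3 for MTAC-P, with a log2 ratio of 0.70 and rank 769 of the genes compared. The level of PLAU was 2.17 times that of its receptor in PC9 and 1.36 times in MTAC-P. PLAUR-203, a transcript of the lipid-anchored receptor, stood at 9.78 and 23.8 (1.20). PLAUR-202, with the other coding end printed above, stood at 7.65 and 4.92 (-0.55). PLAUR-203 made up 52.0% of the PLAUR value in PC9 and 76.0% in MTAC-P, and PLAUR-202 made up 40.6% and 15.7%. PLAUR-201, which has the coding end of PLAUR-203 but leaves out a coding exon at chr19:43655439-43655573, was at 1.40 and 2.59 (0.58). It held the remaining 7.41% of the PLAUR value in PC9 and 8.27% in MTAC-P. Of 11 coding PLAUR transcripts in GENCODE only these 3 were listed.

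SERPINE2, which encodes an inhibitor of thrombin, urokinase and plasmin, was the most abundant of the 8 genes in PC9. It stood at 182 FPKM there and at 170.4 in MTAC-P (chromosome 2, 223975112 to 224039319; log2 ratio -0.10). That was 4.47 times the level of PLAU in PC9 and 4.02 times in MTAC-P. SERPINE2-201, with the added bases, stood at 59.5 and 44.4 (-0.41), and SERPINE2-202 at 120.5 and 124 (0.05). The form with these bases thus made up 32.7% and 26.1% of the SERPINE2 value.

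SERPINB2 (chromosome 18, 63871692 to 63903890) had 0.0119 FPKM for PC9 and 0.0135 for MTAC-P, and its other 2 listed transcripts were at 0 in both. It was below the minimum mean of 1 and entered no count.

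In order of level, PC9 had SERPINE2, F3, PLAU, TFPI, PLAUR, TFPI2, PLAT and SERPINB2. In MTAC-P, F3 stood first, ahead of SERPINE2 and PLAU. PLAUR and TFPI followed at nearly equal levels, 31.3 and 31.2, before TFPI2, PLAT and SERPINB2. These orders rest on listed transcripts only, which cover some genes less fully than others. No spread between libraries is available to say which neighbours in these orders differ.

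**Figure D3:**
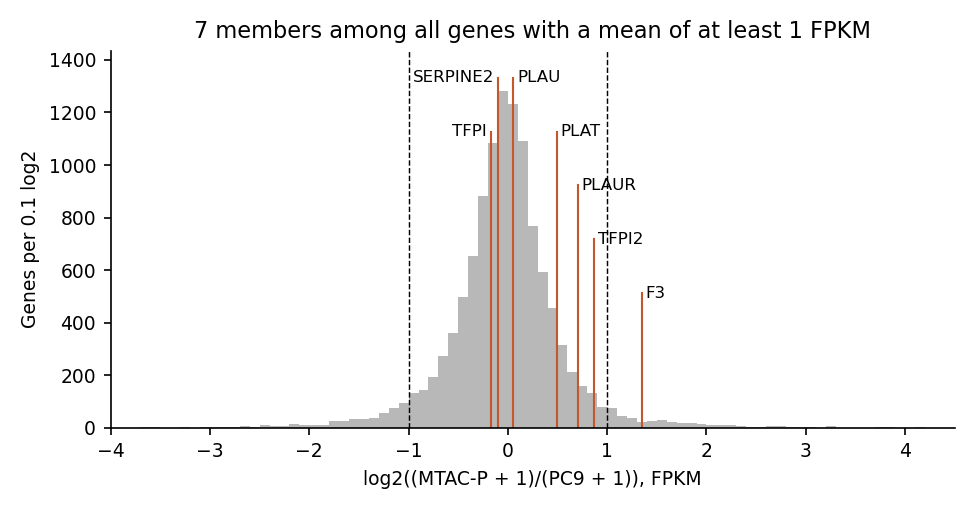
Distribution of the log2 ratio over the 11435 genes whose mean reached 1 FPKM (grey bars, genes per 0.1 log2), with orange lines at the 7 members compared and dashed lines at 2-fold; line heights differ only to keep the names apart. F3 lies past the 2-fold line at 1.35, TFPI2, PLAUR and PLAT lie between 0.49 and 0.87, and PLAU, SERPINE2 and TFPI lie within 0.2 of 0.

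Of the 7 genes compared, 5 had a log2 ratio above 0 and 2 below, with a median of 0.49 beside -0.02 over all genes compared. F3, TFPI2 and PLAUR were at least 1.5-fold higher and none was 1.5-fold lower. Over all genes 20.2% lay at 1.5-fold or more, 8.96% as higher and 11.2% as lower. Of the 31 listed transcripts 17 had a mean of at least 1 FPKM. F3-201, F3-202, PLAUR-203, PLAT-201 and TFPI-203 were at least 2-fold higher and none was 2-fold lower. TFPI-203 reached that mean only through MTAC-P, so it had to differ. Among all 19406 transcripts with such a mean, 16.6% lay at 2-fold or more, 7.76% as higher and 8.88% as lower. Transcripts of 1 gene share reads and are not independent.

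Companion genes of the system were described in 6 lists. Of 26 such genes whose mean reached 1 FPKM, 1 was at least 2-fold higher and none lower, a share near the 3.48% of all genes compared that were higher. That gene was THBD, which encodes thrombomodulin, the cell surface cofactor that turns thrombin towards protein C. It had 0.437 FPKM for PC9 and 2.93 for MTAC-P (log2 ratio 1.45), and it reached the minimum mean only through MTAC-P.

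Among receptors and partners of the tissue factor pathway, 3 of 10 reached the mean of 1, with a median log2 ratio of 0.28. F2RL1, which encodes the protease receptor PAR2 that tissue factor with factor VIIa can cut, stood at 34.5 and 33.0 FPKM (-0.06). F7 itself was at 0.0521 in PC9 and listed at 0 in MTAC-P. PROCR, the endothelial protein C receptor gene, was also in this list.

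Plasminogen (PLG) was listed at 0 in both libraries. Of the genes whose proteins can bind it at the cell surface, the 2 with the highest RNA levels are named. S100A10 had 1165 FPKM for PC9 and 1363 for MTAC-P (log2 ratio 0.23), and the glycolytic enzyme ENO1 at 1101 and 1464 (0.41). In this list 4 of 5 genes compared lay above 0, none at 2-fold, with a median of 0.30.

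Other inhibitors of the activators and of plasmin had 3 of 8 genes compared and a median of 0.07. SERPINB6 stood at 69.7 and 73.3 FPKM (0.07) and SERPINB8 at 11.3 and 16.1 (0.48), while SERPINA5 and CPB2 were listed at 0 in both. The proteases that activate pro-urokinase and their inhibitors had 4 of 8 compared and a median of -0.12. The membrane protease matriptase (ST14) stood at 35.1 and 34.6 (-0.02), and its Kunitz inhibitor SPINT1 at 20.2 and 30.04 (0.55).

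Clearance receptors and partners of the urokinase receptor had 9 of 12 compared, with 5 above 0, 4 below and a median of 0.01. The integrin subunit ITGB1 stood at 147 and 198 FPKM (0.42) and LRP8, a receptor of the low-density lipoprotein receptor family, at 32.9 and 45.5 (0.45). In the SERPINB cluster around SERPINB2 on chromosome 18, 3 of 10 genes were compared, with a median of 0.25. SERPINB5, which encodes maspin, stood at 26.2 and 25.97 (-0.01).

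**Figure D4:**
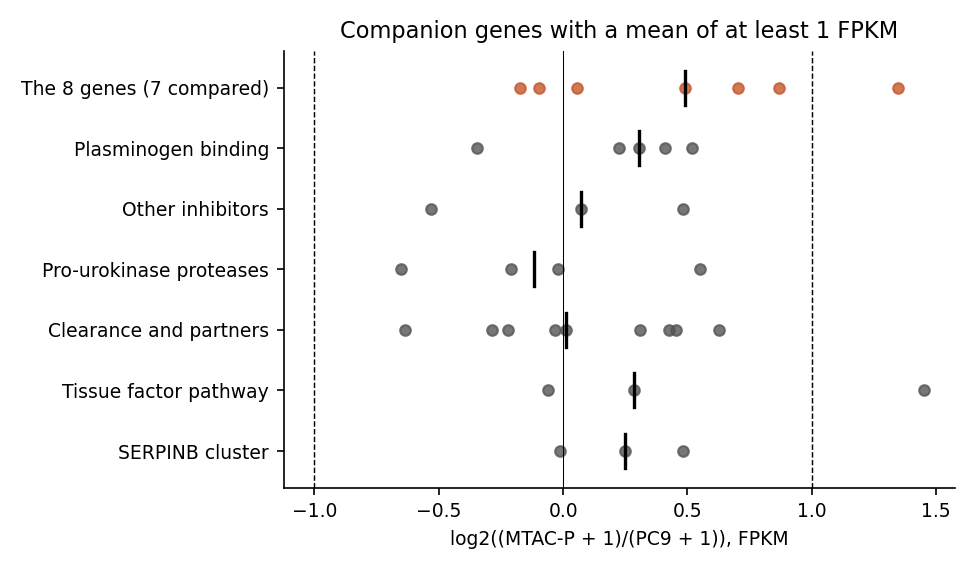
Log2 ratio (horizontal axis) of the 7 members compared (orange) and of companion genes whose mean reached 1 FPKM (grey), 1 row per list, with a black bar at each median and dashed lines at 2-fold. THBD at 1.45, in the tissue factor pathway row, and F3 at 1.35, in the top row, are the points past 2-fold.

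The stretch before each start site was searched for 6 short motifs, chosen after the ratios were seen, so their matches support no link with the ratios. Promoters came from RefSeq (GRCh38.p14), and 7 of the 8 genes had an entry, all but PLAT. The 250 bases before the RefSeq start were read on both strands, and positions below refer to that start. Some GENCODE transcripts start further upstream, so part of a window can lie inside a transcript. All TFPI2 matches lie inside the span of TFPI2-201, which starts at 93890991. The AP-1 match of PLAUR overlaps the start of PLAUR-203, at 43670350, and lies inside the span of PLAUR-201. That of SERPINB2 lies inside the span of SERPINB2-202, which starts at 63871692 and was listed at 0 in both libraries. The AP-1 motif TGANTCA was found before F3, TFPI2, PLAUR and SERPINB2, and in 6.57% of all 35116 promoter entries. PLAU, SERPINE2 and TFPI had none in this window.

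The matches are shown in 30 bases each, on the gene's strand, with the motif in capitals, to let the sites be compared. F3 has a pair of sites, with first bases at -223 and -210 from its RefSeq start. The match of PLAUR begins at -186, that of TFPI2 at -87 and that of SERPINB2 at -102. The windows lie at chr1:94541964-94541993, chr1:94541951-94541980, chr19:43670337-43670366, chr7:93890822-93890851 and chr18:63887592-63887621.
F3 first site: ggtggcgcggtTGAATCActggggtgagtc
F3 second site: aatcactggggTGAGTCAtcccttgcaggg
PLAUR: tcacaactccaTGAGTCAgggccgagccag
TFPI2: gtccccgtgcaTGAATCAgccacccctcag
SERPINB2: gagtaaaatgtTGAATCActcaaaggacac

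For F3, the gene at 2-fold, the bases from the far end of this window to the first annotated GENCODE start are given whole (chr1:94541801-94542009, minus strand), with both AP-1 matches in capitals.
F3 promoter: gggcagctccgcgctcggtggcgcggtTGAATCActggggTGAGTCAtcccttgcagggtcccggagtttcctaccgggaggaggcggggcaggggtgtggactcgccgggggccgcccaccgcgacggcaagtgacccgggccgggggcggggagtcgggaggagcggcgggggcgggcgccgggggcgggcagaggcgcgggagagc

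The other 5 motifs were counted in the same window. The GC box GGGCGG was found before PLAU, SERPINE2, F3 and TFPI2 and in 42.6% of all entries. F3 had 4 matches and PLAU 3, those of PLAU inside its gene span. The SERPINE2 matches lie inside the spans of SERPINE2-201 and SERPINE2-202, which start further upstream, at 224039319 and 224039288. The EGR motif GCGNGGGCG, which can overlap the GC box, was found before F3, TFPI2 and PLAUR and in 8.41% of all entries. The antioxidant response element TGANNNNGC was found before PLAUR and TFPI2 and in 35.2%, and 1 of its matches at TFPI2 overlaps the AP-1 match. The NF-kB motif, taken as GGG and TTCC with any 3 bases between, was found before TFPI and TFPI2 and in 5.67%. Sites that depart from these letters were not counted, so the lack of a match, as at F3, does not mean the lack of a site. The TEAD motif GGAATG was found before none of the 7 genes and in 11.9% of all entries. The EGR and antioxidant response element matches of PLAUR lie inside the span of PLAUR-203. The NF-kB match of TFPI overlaps the start of TFPI-201 and lies inside the span of TFPI-207, which was listed at 0 in both libraries. A match describes letters in the window only, and binding was not measured.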

How the data were processed

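RNA-seq of PC9 and MTAC-P was used, 1 library each, although the series text speaks of triplicates. Trim Galore, TopHat and Cufflinks were the tools and hg38 the build, per the submitters' processing notes. Their versions and the annotation release are not given in the sources used here. A value per transcript is what the authors deposited, read as FPKM since Cufflinks is named. No counts or intervals were in the files used, so depth and precision are unknown. Each file has 65536 lines, as many as older spreadsheets could hold, ending at transcript number 437205, and transcripts with later numbers were not analysed here.

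Values were summed per symbol (Python 3.11.15, pandas 2.3.3). Genes or transcripts whose mean of both libraries reached 1 FPKM were compared by log2((MTAC-P + 1)/(PC9 + 1)), which understates the difference of low genes, and were counted at 2-fold or more. No test was run. The ratio and the 2-fold count were checked only on PC9 values with known changes put into well-expressed genes, without noise. Low genes, transcript shares and motifs were not covered by that check. Transcript structures and sequences came from GENCODE release 29 (27 of 31 listed transcripts were in it) and promoters from RefSeq.

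All 8 genes, their transcripts with a mean of at least 1 FPKM and, per companion list, genes at 2-fold (up to 4) and the 2 most abundant were to be named. F7, PTPRC, NKX2-1, CD68, overlapping genes and genes listed at 0 were added after their values were seen. The genes and lists were chosen with earlier results of these data known, and the motifs after the ratios were seen. Alternatives were other pseudocounts, scalings, filters, folds and transcript sets.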

Additional observations from a re-analysis of the deposited data

How the results depend on the processing

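F3 was at least 2-fold higher under each of the 9 alternatives that recomputed its ratio, from 1.24 to 1.37. The sets of coding and of GENCODE 29 transcripts could not change this ratio, because they keep both F3 transcripts. PLAU ranged from 0.02 to 0.08, TFPI2 from 0.71 to 0.92, PLAUR from 0.61 to 1.20, PLAT from 0.29 to 1.02, SERPINE2 from -0.13 to 0.05 and TFPI from -0.67 to 0.15. With the highest transcript only, PLAUR (1.20) and PLAT (1.02) passed 2-fold, SERPINE2 stood at 0.046 and TFPI at -0.67, because each then stands for a single transcript, and 3 members were at least 2-fold higher. With GENCODE 29 transcripts only, an alternative added after seeing the data, TFPI stood at 0.15. The count of members at least 2-fold higher became 3 at 1.5-fold and 0 at 4-fold. With a pseudocount of 5, transcripts PLAT-201 (0.45), PLAUR-203 (0.96) and TFPI-203 (0.74) fell below 2-fold. In the tissue factor pathway list the count of genes at 2-fold, THBD, became 0 with a pseudocount of 5, 0 at a mean of at least 5 and 0 at 4-fold, and the median was -0.027 with no filter. At 1.5-fold the lists of pro-urokinase proteases and of clearance receptors counted 1 gene (CTSB, lower) and 2 genes (LRP1, lower, and ITGA5, higher), named after their values were seen. The median of clearance receptors was -0.016 with equal upper quartiles and -0.011 scaled without mitochondrial genes, and 0.31 at a mean of at least 5. The median of other inhibitors was 0.49 with the highest transcript only, and that of the SERPINB cluster 0.0089 with no filter. The median of all genes moved by at most 0.03 in log2 under any scaling. All other values kept their side of 2-fold. No paired analysis was possible because there is a single library of either line, and no replicate could be omitted.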

Other observations

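Genes next to F3 on chromosome 1 were within 2-fold. The 10 nearest coding genes compared, 5 on each side between 93561786 and 96823738, had log2 ratios from 0.03 to 0.63 with a median of 0.20. The nearest on either side were ABCD3, a peroxisomal transporter gene, at 40.5 FPKM (PC9) and 42.1 FPKM (MTAC-P), a log2 ratio of 0.05, and CNN3, which encodes an actin-binding calponin, at 49.5 and 51.8 (0.06). F3, at 1.35, stood above all 10.

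Around TFPI2 on chromosome 7 the 10 neighbours ranged from -0.16 to 0.62 with a median of 0.15. GNG11, a G protein subunit gene just beyond it, stood at 10.8 and 17.1 FPKM (0.62). Around PLAUR on chromosome 19 they ranged from -0.83 to 0.27 with a median of -0.17, so PLAUR, at 0.70, lay above each of them. These neighbours were chosen by position after the ratios of F3, TFPI2 and PLAUR were seen.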
